A study of Mus musculus with 11 samples.

Results

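The 6 genes described here code for the leukocyte adhesion molecules of endothelium: the immunoglobulin-family ligands Icam1, Icam2, Vcam1 and Madcam1, and the selectins Sele and Selp. They were chosen by name, not by a threshold on their values, and all 6 were found among the 26921 genes of the single-cell count tables of 11 libraries from mouse cerebral cortex. Every cell held at least 500 and at most 6000 detected genes and under 25% mitochondrial transcripts, which kept 50625 of 54646 barcodes, and each count is a unique molecular identifier (UMI), that is 1 captured transcript.

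Leukocytes leave the blood in steps. Selectins on endothelial cells (ECs) slow the flowing cell by binding glycans carried on ligands such as Selplg, and chemokines then activate leukocyte integrins, which bind the immunoglobulin-family molecules and hold the cell before it crosses the vessel wall. Icam1 and Icam2 are ligands of the integrins built from Itgal or Itgam with Itgb2, Vcam1 is a ligand of Itga4 paired with Itgb1 or Itgb7, and Madcam1 is a ligand of Itga4 paired with Itgb7. Icam1, Vcam1 and Sele are known to be induced in ECs by inflammatory cytokines through NF-kB, Icam2 is known as a constitutive endothelial protein, Selp is also stored in EC granules and platelets, and Madcam1 is best known from venules of gut and mucosal lymphoid tissue.

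All libraries came from the cortex of C57BL/6 mice, female by the study's methods, after removal of myelin by a density step, and each pooled several animals. The 4 Juvenile libraries came from pools of 6 mice at 10 days of age, the 3 Adult libraries from pools of 6 mice at 7 to 11 weeks, and the 2 Aged libraries from pools of 3 mice at 18 months. The 2 EAE libraries came from pools of 3 mice at 7 to 11 weeks, taken at the disease peak of experimental autoimmune encephalomyelitis, which had been induced with a MOG peptide in Complete Freund's Adjuvant and intravenous pertussis toxin. No group with the adjuvant and toxin but without the peptide was analysed here, so effects of the peptide, adjuvant and toxin cannot be told apart. The sources do not say that the libraries of a group came from separate pools, so every p here measures the spread between these libraries, which may be technical.

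The libraries held 15755504 to 34326349 UMIs, with a median of 2420 to 4200 UMIs per kept cell. Cells were clustered without the 6 genes and named from marker lists, so that each name below stands for cells that resemble that type. Of the kept cells, 21149 were ECs, and the markers of ECs (7 of 7), mural cells (10 of 10), fibroblasts (8 of 8), choroid plexus (CP) epithelium (8 of 8) and perivascular macrophages (PVMs; 8 of 8) were highest in the clusters of that name. The marker lists were led less cleanly by microglia (7 of 8), oligodendrocyte-lineage cells (8 of 9), astrocytes (6 of 8), monocytes and macrophages (7 of 9) and dendritic cells (4 of 7). Juvenile libraries 1 and 2 differed in ECs by little more than sampling noise (mean squared deviation 1.07, where noise alone gives about 1) and were counted as 1 sample, leaving 10 samples. Adult libraries 2 and 3 were also close in ECs (1.36), while Adult library 1 stood apart from both (12.4 and 13.4). Fits without Adult library 1 therefore hold little spread between Adult samples. Juvenile libraries 3 and 4 were close in ECs too (1.29) and stood apart from Juvenile libraries 1 and 2 (6.08 to 6.97), but were counted as 2 samples. In microglia Adult libraries 2 and 3 differed by no more than sampling noise (1.02) and Juvenile libraries 1 and 2 by 1.15, but samples were merged by the EC values alone, so tests in microglia count Adult libraries 2 and 3 as 2 samples and were run again with them as 1. Pairs of libraries shared at most 113 cell barcodes, against 91.4 by chance for that pair (EAE 1 and EAE 2).

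Levels are given in CPM, the gene's UMIs scaled to an equal total for the summed cells of 1 type in 1 library. UMIs are not scaled by gene length, so levels are compared within a gene and not between genes. CPM is a share of the transcripts of a population, so it does not change with the number of cells. Changes are log2 differences with standard errors (SE) from edgeR's quasi-likelihood test on summed counts, and a change was taken to pass at a Benjamini-Hochberg adjusted p of 0.05 over all genes tested.

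Icam1 lies on chromosome 9 (21015985 to 21028817, plus strand), Icam2 on chromosome 11 (106377656 to 106388075, minus strand), Vcam1 on chromosome 3 (116109949 to 116129688, minus strand) and Madcam1 on chromosome 10 (79664559 to 79668537, plus strand) of mouse build GRCm38. Sele (164048234 to 164057677) and Selp (164115264 to 164150026) are close neighbours on the plus strand of chromosome 1. RefSeq's GRCm38.p6 promoter table held 4 of the 6 genes. The 250 bases before RefSeq's start are shown for 3 genes. They are Sele, the gene that rose in EAE ECs, Madcam1, the gene that was high in Juvenile ECs, and Icam1, which ECs share with microglia. These were picked because the 3 genes followed different patterns although each is known as a cytokine-induced gene. Capitals mark matches, on either strand and with overlapping matches joined, to GGGNNNNNCC, a loose form of the NF-kB motif. Forms of the motif without GGG were not searched and are not marked.
Sele (chr1:164047984-164048233, + strand): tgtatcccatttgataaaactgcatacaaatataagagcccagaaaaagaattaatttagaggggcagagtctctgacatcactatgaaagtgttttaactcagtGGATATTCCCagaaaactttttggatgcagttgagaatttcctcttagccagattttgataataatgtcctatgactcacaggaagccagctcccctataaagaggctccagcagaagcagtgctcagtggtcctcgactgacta
Madcam1 (chr10:79664309-79664558, + strand): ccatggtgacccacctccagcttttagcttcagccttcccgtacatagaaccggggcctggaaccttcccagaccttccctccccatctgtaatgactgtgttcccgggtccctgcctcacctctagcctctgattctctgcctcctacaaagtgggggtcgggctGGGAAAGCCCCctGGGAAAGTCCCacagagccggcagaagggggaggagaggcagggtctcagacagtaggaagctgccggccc
Icam1 (chr9:21015690-21015939, + strand): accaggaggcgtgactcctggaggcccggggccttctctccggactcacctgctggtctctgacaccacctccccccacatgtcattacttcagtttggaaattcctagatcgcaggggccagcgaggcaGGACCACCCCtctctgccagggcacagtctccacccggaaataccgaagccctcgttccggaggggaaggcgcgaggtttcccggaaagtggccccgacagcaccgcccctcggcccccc
In Sele a GGGNNNNNCC match stood at bases -145 to -136 from the start and TATAAA at -49 to -44. In Madcam1 overlapping matches covered bases -84 to -74 and -71 to -61, and bases -70 to -61 also matched the stricter GGGANNTTCC. In Icam1 the match stood at -120 to -111. These bases count from RefSeq's start, as the Icam1 window ends at 21015939 and not at the gene start of 21015985 given above. GGGNNNNNCC occurred in 45.8% of 32851 promoters of this length, TATAAA in 12.4% and GGGANNTTCC in 1.21%, so the loose match is common and is given only as a description of these windows.

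The 6 genes divided their transcripts differently among cell types. ECs held 32805 of 35942 Icam2 UMIs (91.3%) and 583 of 610 Sele UMIs (95.6%). They held 5109 of 6976 Icam1 UMIs (73.2%), with microglia holding 16.1%, and 394 of 536 Madcam1 UMIs (73.5%), with CP epithelium holding 22.6%. For Vcam1 and Selp ECs held less: 14108 of 31069 Vcam1 UMIs (45.4%), beside 24.8% in CP epithelium, 14.1% in PVMs and 5.64% in astrocytes, and 105 of 248 Selp UMIs (42.3%), beside 37.1% in monocytes and macrophages. These shares follow the numbers of cells collected as well as the level per cell.

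**Figure D1:**
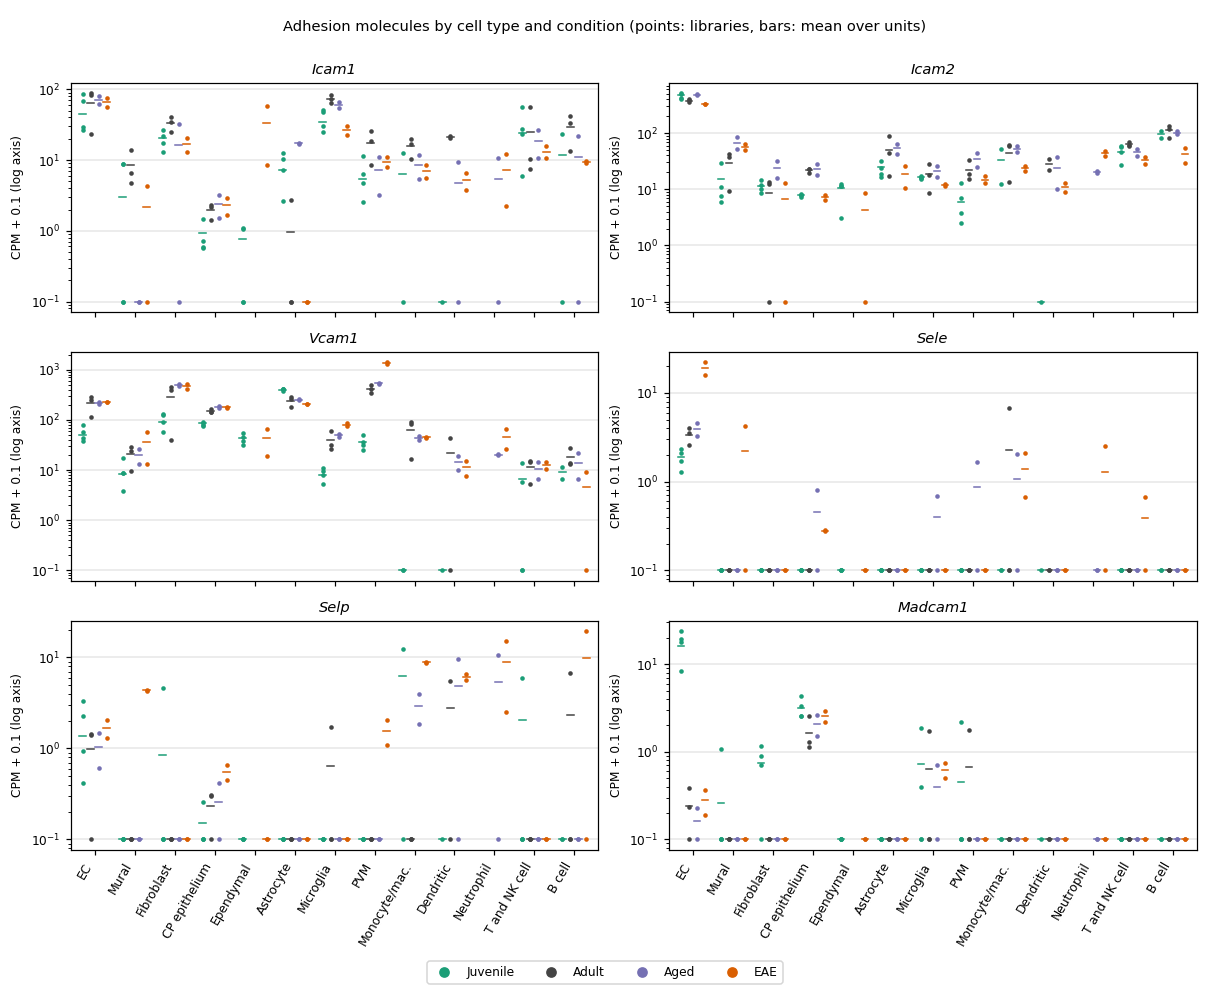
Levels of the 6 genes by cell type, as CPM plus 0.1 on a log axis, with 1 point per library coloured by condition and bars at the mean over samples. Icam2 and Sele are highest in ECs, Vcam1 in PVMs, astrocytes, CP epithelium and fibroblasts reaches levels near or above that of ECs, and Selp in EAE is higher in monocytes and macrophages than in ECs.

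Icam2 was the most EC-restricted of the well-covered genes. Its EC level was 403, 383 and 355 CPM in the 3 Adult libraries, 477 and 488 CPM in Aged, 326 and 330 CPM in EAE and 421, 406, 493 and 512 CPM in Juvenile. In untreated mice ECs exceeded mural cells by 4.19, CP epithelium by 4.17, PVMs by 4.42, microglia by 4.47 and fibroblasts by 5.03 on the log2 scale, each past the test. The same comparisons called 39.6% (mural), 70.3% (CP epithelium), 49.2% (PVMs), 57.6% (microglia) and 46.5% (fibroblasts) of all genes. In Adult mice the Icam2 level of mural cells was 7.76% of that in ECs and that of CP epithelium 5.74%. EC markers that those cells should lack stood at 7.60 to 9.38% (mural cells) and 4.11 to 7.85% (CP epithelium) of the EC level, so Icam2 there was within the range of EC transcripts found in other cells. By their means, monocytes and macrophages lay above that range in all 4 conditions. They stood at 11.7% against 4.37 to 6.22% in Adult and at 6.51% against 1.02 to 3.87% in Juvenile mice. The Adult mean rested on 15 UMIs, with libraries from 13.2 to 60.9 CPM. The Juvenile mean rested on 5 UMIs, with libraries from 12.3 to 53.1 CPM, so single libraries need not lie above the range. Other leukocytes lay above the range in part of the conditions. B cells had 81.2, 119 and 134 CPM in Adult libraries, 29.3% of the EC level against 6.04 to 16.9% for the EC markers, and were also above every marker in EAE (12.8%), but in Aged mice they were within the range (21.2% against 4.72 to 21.5%). T and NK cells were above in Adult mice (16.7% against 4.18 to 9.53%), barely so in EAE (9.95% against 4.29 to 9.80%) and within the range in Aged and Juvenile mice. Icam2 above the markers was not particular to leukocytes, since Adult astrocytes (13.2% against 5.75 to 11.7%) and Adult neurons and neuroblasts (7.99% against 4.59 to 6.45%) lay above as well.

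Icam1 was shared between ECs and microglia. In Adult libraries 1, 2 and 3 it reached 23.4, 82.1 and 87.7 CPM in ECs and 83.6, 71.7 and 65.0 CPM in microglia. Over untreated samples ECs and microglia differed by -0.10 ± 0.21 (SE; 95% interval -0.52 to 0.31, edgeR adjusted p = 0.713), so a difference of more than about this interval was not found. ECs exceeded PVMs by 2.24 ± 0.29 (adjusted p = 3.06e-11), mural cells by 3.41, CP epithelium by 4.44 and astrocytes by 2.65. Fibroblasts came nearer, at 40.0, 25.1 and 34.5 CPM in Adult libraries, and ECs exceeded them by 1.19 ± 0.28 (adjusted p = 0.0002). Mural cells held 7 Icam1 UMIs in all Adult libraries and 1 in both EAE libraries. In EAE ECs exceeded microglia by 1.14 ± 0.11 (adjusted p = 3.6e-24), where the microglial level was lower than in Adult mice.

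Vcam1 was not mainly an EC gene in the untreated cortex. In Adult libraries 1, 2 and 3 it reached 112, 280 and 245 CPM in ECs, 502, 416 and 342 CPM in PVMs, 283, 179 and 257 CPM in astrocytes and 164, 143 and 144 CPM in CP epithelium. Only for PVMs did all Adult values lie above those of ECs, and in Juvenile libraries the astrocytes alone did so (380 to 418 CPM, against 38.0 to 80.5 CPM in ECs). Over all untreated samples PVMs exceeded ECs (log2 difference of ECs from PVMs -1.12 ± 0.31, edgeR adjusted p = 0.00153), as did astrocytes (-1.60 ± 0.32, adjusted p = 1.13e-05, with 59.1% of all genes called) and CP epithelium (-0.73 ± 0.30, adjusted p = 0.0267). These fits pool ages that differed. PVM means lay above ECs in Aged mice (538 against 217 CPM) but below them in Juvenile mice (36.2 against 49.9 CPM). CP means lay below ECs in Adult (151 against 212 CPM) and Aged mice (182 against 217 CPM), and above in Juvenile mice (85.1 CPM). Astrocyte means were 240 CPM in Adult, 254 CPM in Aged and 400 CPM in Juvenile mice. The CP call was lost when any of 6 libraries was left out (-0.45 to -0.58), and with libraries scaled by their totals the CP difference was -0.06 (adjusted p = 0.872), while those of PVMs (-0.89) and astrocytes (-1.73) still passed. Fibroblasts did not pass (-0.59 ± 0.33, adjusted p = 0.136) except on that scaling (-0.79, adjusted p = 0.0361). ECs exceeded microglia by 2.22 and mural cells by 3.06, both past the test, and mural Vcam1 lay between 3.71 and 58.6 CPM in all libraries.

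Across all other types the same 3 well-covered genes were tested in untreated mice and 5 genes in EAE. Untreated ECs had all 3 genes higher than B cells (45.2% of genes called), dendritic cells (42.8%), monocytes and macrophages (45.2%), T and NK cells (46.4%), neurons and neuroblasts (53.4%) and oligodendrocyte-lineage cells (42.4%). They had 2 of 3 higher than ependymal cells (55.2%), neutrophils (23.4%) and red blood cells (16.6%), with none lower. In EAE ECs had all 5 tested genes higher than microglia (65.8%) and T and NK cells (64.9%), and 4 higher than mural (27.5%), ependymal (39.1%) and neuronal cells (33.7%). They had 3 higher and none lower than CP epithelium (71.3%), astrocytes (30.2%) and B cells (22.4%), and 3 higher and 1, Vcam1, lower than fibroblasts (20.7%) and PVMs. They had 4 higher and 1, Selp, lower than monocytes and macrophages (68.3%), dendritic cells (54.6%) and neutrophils (38.8%).

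Most Sele UMIs lay in ECs. In EAE, where it was best covered, 119 of 7208 ECs (1.65%; exact binomial 95% interval 1.37 to 1.97%) held 421 Sele UMIs. It was found in 5 of 1696 monocytes and macrophages (13 UMIs) and in 0 of 2879 microglia, which allows a share of cells with a UMI of up to 0.104%. It was also found in 0 of 439 PVMs, which allows up to 0.683%, although the EC median depth of 2363 UMIs was below the 3111 UMIs of microglia. Intervals and limits of this kind cover counting error only, and they limit cells with a captured transcript, not cells expressing the gene.

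Selp, the granule-stored selectin, had its highest level outside ECs in EAE. Monocytes and macrophages held 8.69 and 8.74 CPM in the 2 EAE libraries, against 1.97 and 1.19 CPM in ECs, and the groups did not overlap, although REVs, described below, reached 12.3 and 6.44 CPM. The log2 difference of ECs from monocytes and macrophages was -2.91 ± 0.33 (edgeR adjusted p = 5.67e-18; 68.3% of all genes called), from dendritic cells -2.33 (adjusted p = 0.000365; 54.6%) and from neutrophils -3.22 (adjusted p = 0.000544; 38.8%). In cells, 68 of 1696 monocytes and macrophages (4.01%, interval 3.13 to 5.06%) and 12 of 384 dendritic cells (3.13%) held a Selp UMI, as did 2 of 65 B cells (3.08%, interval 0.375 to 10.7%) and 7 of 351 neutrophils (1.99%, interval 0.805 to 4.07%). Neutrophils had 2.40 and 15.2 CPM in EAE libraries 1 and 2, from 8 UMIs. Microglia, which should lack it, had a UMI in 0 of 2879 cells (up to 0.104%), T and NK cells in 0 of 1782 (up to 0.168%), CP epithelium in 5 of 918 (0.545%) and ECs in 18 of 7208 (0.250%). Median depths were 5836 UMIs in monocytes and macrophages, 6061 in dendritic cells, 2075 in B cells, 1868 in neutrophils, 3111 in microglia, 3285 in T and NK cells, 11104 in CP epithelium and 2363 in ECs, and the part of depth in these shares was not tested. Of 5 platelet genes, Itga2b, Gp9, Ppbp, Gp1bb and Clec1b, none had a UMI in the 68 cells, while 7 cells held Pf4, which macrophages can also express. Of the untreated monocytes and macrophages, those from Aged mice had 1.76 and 3.89 CPM and the 76 cells from Adult mice had 0 UMIs. The EAE level was 1.07 times the level that 3 UMIs over all the Adult cells would give, so a change in EAE could not be read from these counts.

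Within ECs, levels followed the position of the cell along the vessel. The ECs were subclustered, again without the 6 genes, into arterial (721 cells), arteriole-side capillary (CapA, 5129), venule-side capillary (CapV, 9859) and venous (1436) ECs and reactive endothelial venules (REVs, 745), all named from markers. Only clusters with an arterial marker score over 2.5 were called arterial. The CapA class therefore includes 2 clusters (2206 of its 5129 cells) that scored higher for arterial than for CapA markers. The line between REVs and venous ECs is a fine one too, since the REV cluster scored 1.76 for REV and 1.72 for venous markers, and the venous cluster 0.991 for venous and 0.982 for CapV markers. An Inflammatory cluster led by Lcn2 and Lrg1 (330), a Mitotic cluster (267) and 2 clusters called by their first genes, Angpt2-high (1002) and Ifit-high (952), completed the set. Genes that vary with the 6 did enter this clustering, so differences between subtypes are given as sizes with SE and no p. Each subtype was compared with all other ECs of the same sample, over untreated and EAE samples together.

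REVs had the highest mean Icam1 of the EC subtypes in each condition. In EAE the Inflammatory cluster (135 to 239 CPM) overlapped them (226 to 237 CPM). The 3 Adult libraries had 169, 566 and 587 CPM in REVs, 84.4, 241 and 182 CPM in venous ECs, 23.0, 36.1 and 48.5 CPM in CapV, 5.18, 18.8 and 28.7 CPM in CapA and 29.8, 22.9 and 14.8 CPM in arterial ECs. Within each Adult library REVs were above venous ECs and venous ECs above every capillary and arterial value. Against other ECs REVs differed by 3.03 ± 0.27, venous ECs by 1.30 ± 0.19, CapV by -1.53 ± 0.10, arterial ECs by -1.68 ± 0.22 and CapA by -2.95 ± 0.18. With each cell named by its marker score instead of its cluster, the REV difference was 1.95 and the venous one 1.97. The order REV, venous, CapV held in the mean of each of the 4 conditions, while CapA and arterial values overlapped in the Adult libraries.

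In Adult mice Vcam1 was high at both ends of the vessel tree and low between them. In Adult libraries REVs had 756, 1994 and 1749 CPM, arterial ECs 864, 892 and 828 CPM and venous ECs 152, 649 and 355 CPM. CapA had 68.7, 67.3 and 53.2 CPM and CapV 71.4, 23.2 and 41.3 CPM, below every value of those 3. The CapA level came mostly from the 2 clusters led by arterial markers, with 99.2, 122 and 87.2 CPM, against 14.4, 13.9 and 18.6 CPM in the other CapA cells. Against other ECs REVs differed by 2.91 ± 0.43, arterial ECs by 2.49 ± 0.37, venous ECs by 0.73 ± 0.23, CapA by -1.90 ± 0.59 and CapV by -3.24 ± 0.24. Arterial ECs thus paired high Vcam1 with Icam1 near the capillary level. Icam2 was comparatively even: arterial ECs had 685, 588 and 584 CPM in Adult libraries (0.69 ± 0.11 against other ECs), REVs 418, 325 and 305 CPM (-0.26 ± 0.07) and CapV 392, 357 and 326 CPM (-0.22 ± 0.03).

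With the libraries of a condition pooled, the selectins were concentrated in REVs in Adult and Aged mice. In Adult ECs the 167 REV cells held 6.75% of EC UMIs but 41 of 59 Sele UMIs (69.5%) and 19 of 20 Selp UMIs (95%), beside 48.7% of Icam1, 50.3% of Vcam1 and 5.89% of Icam2 UMIs. Sele in REVs was 0, 40.2 and 33.4 CPM in the Adult libraries and 3.93 ± 0.57 above other ECs over all 10 samples, EAE included (in untreated samples alone Sele was below the low-count filter). Adult library 1, with 14 REVs, thus went the other way. Its 14 Sele UMIs in ECs of the named subtypes all lay outside REVs, and Selp had 0 UMIs there. Aged REVs held 75.4% of Sele and 93.3% of Selp UMIs of ECs, again with 6.85% of all UMIs.

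**Figure D2:**
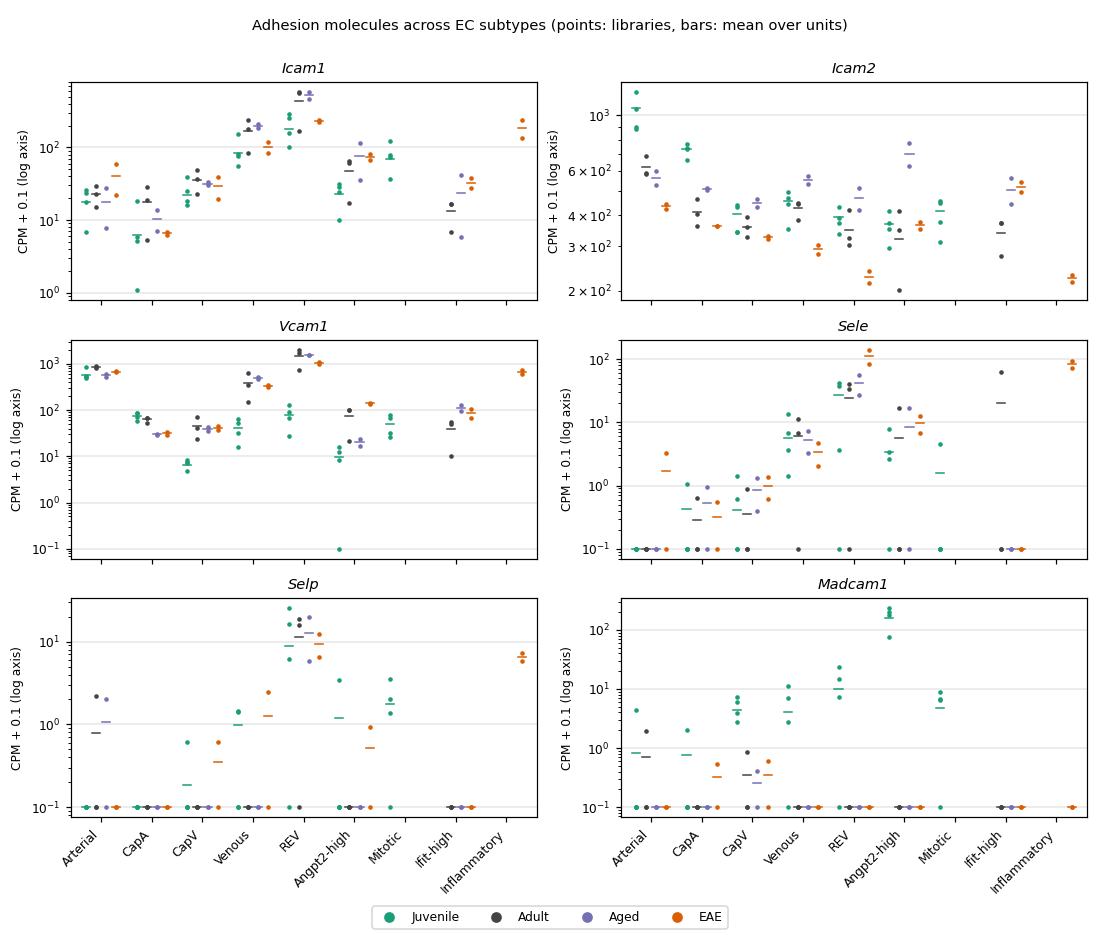
Levels of the 6 genes by EC subtype, as CPM plus 0.1 on a log axis, with 1 point per library coloured by condition and bars at the mean over samples. Icam1 rises from CapA to REVs, Vcam1 is high in arterial ECs and, except in Juvenile mice, in REVs, and low in capillary ECs, and Madcam1 in Juvenile mice is highest in Angpt2-high ECs.

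In EAE, 1 of the 6 genes passed the test in ECs as a whole, in a comparison that called 33.8% of 13672 genes. Sele was 3.95, 3.45 and 2.51 CPM in Adult libraries and 16 and 22.1 CPM in EAE libraries. All EAE values were above all Adult values, with a log2 change of 2.75 ± 0.25 (edgeR adjusted p = 5.67e-06), a fold of 6.73. Vcam1 was 229 and 229 CPM in EAE, inside the Adult range of 112 to 280 CPM (0.28 ± 0.37, adjusted p = 0.603). Icam1 was 75.8 and 55.8 CPM, also inside the Adult range (0.16 ± 0.60, adjusted p = 0.862, and -0.02 when libraries were scaled by their totals). Icam2 at 326 and 330 CPM lay below the Adult values in CPM, but the fitted change was -0.02 ± 0.11 (interval -0.24 to 0.19, adjusted p = 0.895), and -0.21 (adjusted p = 0.114) with libraries scaled by their totals. That difference in scaling moved the median of all EC genes by 0.187 and so touches every EAE value in ECs. Selp gave 35 UMIs in EAE ECs and 20 in Adult ECs, a ratio of 1.48 (interval 0.83 to 2.70). The median log2 change over the 6 genes was 0.54, against 0.00 over all genes tested. That median lay between the changes of Vcam1 and of Selp (0.79, edgeR adjusted p = 0.473), which did not pass, and is a description only.

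**Figure D3:**
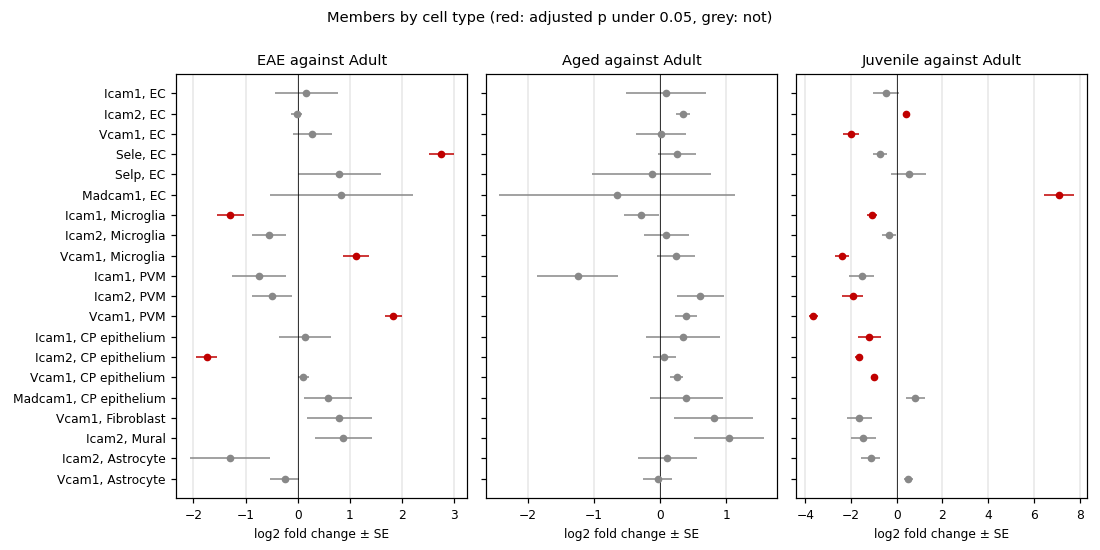
Log2 change ± SE of each tested gene in EAE, Aged and Juvenile against Adult mice, by cell type, with red points for an adjusted p under 0.05. In EAE Sele rises in ECs and Vcam1 in PVMs and microglia, and in Juvenile mice Vcam1 is lower in ECs, PVMs, microglia and CP epithelium.

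The EC-wide levels of Icam1 and Vcam1 in Adult mice rested on library 1, which was low in both and had fewer REVs (1.65% of ECs, against 3.54 and 3.77%). In library 1 also 201 of 846 ECs (23.8%) lay in clusters led by microglial or CP genes, against 2.46 and 1.77% in libraries 2 and 3, and these cells count in the EC-wide levels. Without them REVs were 2.17, 3.63 and 3.84% of ECs, Icam1 was 28.8, 84.4 and 87.9 CPM and Vcam1 132, 287 and 246 CPM in the 3 Adult libraries, and Sele in EAE and Madcam1, Icam2 and Vcam1 in Juvenile ECs still passed the test. It also held the most CP marker transcripts in its ECs (51807 CPM summed, against 20757 and 20297 CPM) and the lowest summed level of 7 early-response genes, Fos, Jun, Egr1, Ccl3, Ccl4, Nfkbiz and Atf3 (2431 CPM, against 5140 and 5313 CPM), a list chosen after values were seen. The Juvenile libraries, also low in Vcam1, had 1563 to 2139 CPM of these genes, and the Aged and EAE libraries 4303 to 4752 CPM. The part of free CP RNA, of REV numbers and of these genes in the Icam1 and Vcam1 levels was not tested.

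The EAE comparison was repeated within parts of the vessel tree. The share of REVs among venous ECs and REVs still differed, at 23.7, 35.1 and 36.5% of these cells in Adult and 43.0 and 47.3% in EAE libraries, so the makeup of this class moved with the condition. Among venous ECs and REVs together (16.1% of genes called), Sele was 6.14, 25.5 and 17.7 CPM in Adult and 53.9 and 97.1 CPM in EAE libraries. The EAE values lay above all Adult values (2.08 ± 0.35, adjusted p = 0.0011), although without EAE library 2 the change was 1.64 with adjusted p = 0.0686. In these cells Icam2 was lower in EAE, at 248 and 251 CPM against 433, 379 and 341 CPM (-0.51 ± 0.12, adjusted p = 0.0088), a call that was lost without Adult library 2 (adjusted p = 0.053), EAE library 1 (0.160) or EAE library 2 (0.144). In venous ECs without REVs Sele rested on 5 Adult and 3 EAE UMIs. Icam1 in both together was 182 and 193 CPM against 123, 423 and 396 CPM (-0.75 ± 0.52, adjusted p = 0.41) and Vcam1 764 and 858 CPM against 427, 1403 and 1093 CPM (-0.20 ± 0.47, adjusted p = 0.83). Without Adult library 1 these became -1.04 (adjusted p = 0.0524) and -0.53 ± 0.14 (adjusted p = 0.0431), so the Vcam1 call turned on that library. Among capillary ECs none of the tested genes passed (29.8% of all genes called), with Sele at 1.89 ± 1.11 (adjusted p = 0.224), Icam2 at -0.04, Vcam1 at -0.30 and Icam1 at -0.46. None of the 5 genes tested changed differently in venous-side than in capillary ECs by an interaction test, which called 0.0848% of all genes, except that without Adult library 1 Icam2 fell more on the venous side (-0.48, adjusted p = 0.000552).

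In REVs alone Sele was 83.6 and 140 CPM in EAE, and the ratio to Adult REVs was 3.44 (205 against 41 UMIs, counting interval 2.45 to 4.94). The REV share of EC Sele was nonetheless lower in EAE, at 48.7%, while the Inflammatory cluster, which made up 4.56 and 4.35% of EAE ECs and at most 0.135% in any other library, held 42.5%. That cluster had 72.7 and 92.6 CPM Sele, 239 and 135 CPM Icam1, 724 and 612 CPM Vcam1 and 7.18 and 5.67 CPM Selp. Against other EAE ECs it differed by 2.83 ± 0.16 (Sele), 1.90 ± 0.11 (Icam1), 1.95 ± 0.08 (Vcam1), 2.63 ± 0.60 (Selp) and -0.52 ± 0.09 (Icam2). These sizes depended on the cluster, since cells named Inflammatory by marker score gave 1.64 (Sele), 0.34 (Icam1), -0.36 (Vcam1) and 0.055 (Icam2), with the sign changed for the last pair. With 8.27% (REV) and 9.82% (Inflammatory) of the EC UMIs in EAE, the pair held 38.1 and 28.7% of Vcam1, 29.1 and 28.1% of Icam1 and 48.6 and 40.0% of Selp, more of each than all other ECs. The interferon-gene cluster Ifit-high was the opposite, with Icam1 at -1.57 ± 0.18 and Vcam1 at -1.61 ± 0.30 against other ECs.

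**Figure D4:**
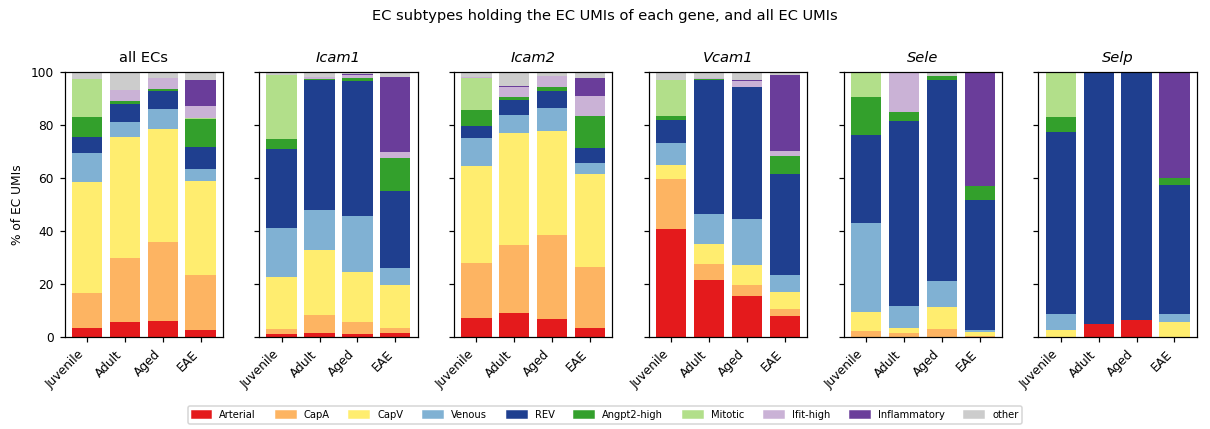
Percentage of EC UMIs held by each EC subtype, stacked, for all genes and for Icam1, Icam2, Vcam1, Sele and Selp in each condition. Icam2 follows the share of all EC UMIs, while REVs hold 69.5% of Sele in Adult and 48.7% in EAE, where the Inflammatory cluster holds a further 42.5%.

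Icam1 and Vcam1 were seldom found in the same EC. With each cell thinned to 1500 UMIs, both were detected in 0.512, 2.84 and 2.24% of Adult ECs, 1.88 and 1.60% of Aged ECs and 2.23 and 1.75% of EAE ECs. The EAE and Adult values overlapped (difference of means 0.129 percentage points, exact two-sided permutation p = 1, where 0.1 is the smallest p possible). Juvenile values were 0.739, 0.391, 0.097 and 0.197% (difference -1.58, exact two-sided permutation p = 0.2, smallest possible 0.1). Without thinning the means were 4.47% in Adult and 4.6% in EAE. Among REVs the share was 48.6 and 34.2% in Adult libraries 2 and 3, 29.3 and 25% in Aged and 21.1 and 19.9% in EAE, against at most 0.560% in CapV. Ependymal cells, which had few Icam1 UMIs, had both genes in 0 of 22 to 254 cells per library, at median depths of 3610 to 4359 UMIs.

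Outside endothelium, the Vcam1 change in EAE of largest fitted size among the 5 types with a fitted value was in PVMs, the macrophages of the perivascular space. Their Vcam1 was 502, 416 and 342 CPM in Adult and 1291 and 1412 CPM in EAE libraries, with no overlap. The change was 1.83 ± 0.16 (edgeR adjusted p = 4.09e-09), a fold of 3.56, and 1 of the 3 genes tested in PVMs passed, where 21.5% of all genes did. In EAE ECs were 2.81 ± 0.10 below PVMs in Vcam1 (adjusted p = 2.7e-85; 48.4% of genes called). EC markers summed to 1054 to 1346 CPM in Adult PVMs and 901 to 1077 CPM in EAE PVMs, and their part in the Vcam1 change was not tested. Whether the EAE effect on Vcam1 differed between ECs and PVMs turned on Adult library 1. The interaction was -1.63 ± 0.54 with it (adjusted p = 0.114; 3.29% of genes called) and -2.11 without it (adjusted p = 1.03e-30). The Adult libraries left in the latter fit were close in ECs, so that p rests on little spread between Adult samples.

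Microglia, the resident macrophages of brain tissue, moved Icam1 and Vcam1 in opposite directions in EAE, with 1 gene higher and 1 lower of 3 tested (28.4% of genes called). Vcam1 was 59.6, 26.1 and 31.1 CPM in Adult and 75.7 and 85.3 CPM in EAE libraries, without overlap (1.12 ± 0.25, adjusted p = 0.00441). Icam1 was 83.6, 71.7 and 65.0 CPM in Adult and 30.4 and 22.7 CPM in EAE libraries, again without overlap (-1.30 ± 0.26, adjusted p = 0.00215). With Adult libraries 2 and 3 as 1 sample both calls remained (Vcam1 1.05 ± 0.27, adjusted p = 0.0149, and Icam1 -1.33 ± 0.29, adjusted p = 0.00646), while with every close pair summed, which leaves 1 EAE sample, neither passed. Against the EC change the Icam1 effect differed by 1.38 ± 0.48 and did not pass (adjusted p = 0.0878; 7.58% of genes called), but passed without Adult library 1 at 0.84 (adjusted p = 0.0177). Microglia of the 2 conditions came from different clusters. Adult cells lay in clusters 18 (60.3%; Icam1 87.6 and Vcam1 57.3 CPM) and 1 (39.0%; 59.3 and 23.3 CPM), and EAE cells in clusters 5 (87.3%; 28.8 and 76.2 CPM) and 28 (11.8%; 4.35 and 91.3 CPM). Monocyte and macrophage markers in microglia summed to 42.6 to 59.3 CPM in Adult and 324 to 356 CPM in EAE. EC markers summed to 912 to 1166 and 460 to 506 CPM, and the part of either marker set in these changes was not tested. Of the early-response genes listed for ECs, Fos was 513, 733 and 727 CPM in Adult and 313 and 296 CPM in EAE microglia. Jun was lower in EAE too, Ccl3 and Ccl4 were higher, and Egr1, Nfkbiz and Atf3 overlapped. The part of these genes in the Icam1 and Vcam1 changes was not tested.

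**Figure D5:**
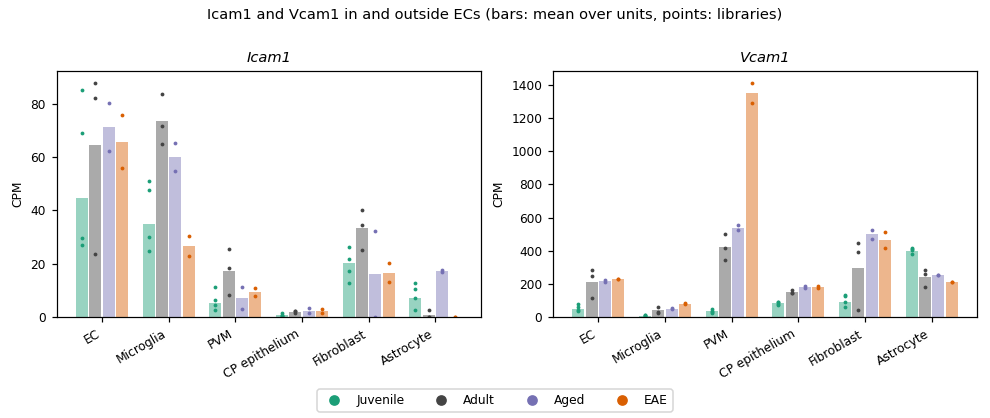
Icam1 and Vcam1 in CPM on a linear axis from 0, by condition, in ECs, microglia, PVMs, CP epithelium, fibroblasts and astrocytes, with bars at the mean over samples and 1 point per library. PVM Vcam1 stands at 1291 and 1412 CPM in EAE and at 24.6 to 50.2 CPM in Juvenile mice, and microglial Icam1 is lower in EAE than in any Adult library.

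CP epithelium, which forms the blood-cerebrospinal fluid barrier, had 184 and 175 CPM Vcam1 in EAE, above the 164, 143 and 144 CPM of Adult libraries, but the change did not pass the test (0.11, adjusted p = 0.421, and 0.25, adjusted p = 0.0543, with libraries scaled by their totals). In EAE it differed from ECs by -0.01 ± 0.10 (interval -0.20 to 0.19, adjusted p = 0.969), whereas with libraries scaled by their totals ECs were 0.35 above it (adjusted p = 0.000993). Icam2 was 22.8, 19.3 and 23.3 CPM in Adult and 7.88 and 6.47 CPM in EAE libraries (-1.75 ± 0.20, adjusted p = 3.24e-06), the 1 gene of 4 tested to pass (38.3% of genes called). EC markers in CP epithelium moved with it, at 4.11 to 7.85% of their EC level in Adult and 1.68 to 5.56% in EAE, and their part in the result was not tested. In EAE 55.8% of these cells lay in cluster 15 and 43.5% in cluster 3, against 9.61 and 90.0% in Adult, while Icam2 was lower in both clusters (6.60 against 18.0 CPM in cluster 15, 9.60 against 23.7 CPM in cluster 3).

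Of the 6 non-endothelial types compared between conditions, only in CP epithelium did Madcam1, the mucosal adhesion molecule, pass the low-count filter. Its level was 1.02, 1.20 and 2.45 CPM in Adult (29 UMIs), 1.4 and 2.52 CPM in Aged (12 UMIs), 2.81 and 2.10 CPM in EAE (27 UMIs) and 4.24, 2.46, 2.47 and 3.25 CPM in Juvenile libraries (53 UMIs). The EAE change was 0.58 (adjusted p = 0.346) and the Juvenile change 0.82 ± 0.41 (adjusted p = 0.0887, and 0.042 with libraries scaled by their totals or 0.0184 without Adult library 3). The Adult, Aged and EAE values were above those in ECs of the same libraries, which lay between 0 and 0.282 CPM.

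Fibroblast Vcam1 differed widely between libraries and between the fibroblast clusters. It was 40.0, 389 and 448 CPM in Adult, 472 and 526 CPM in Aged, 515 and 417 CPM in EAE and 127, 134, 56.8 and 89.4 CPM in Juvenile libraries. Cluster 34, led by Lum, Coch and Col1a1, had 1296 CPM in Aged (18 cells), 685 CPM in EAE (23 cells) and 404 CPM in Juvenile mice (172 cells). Cluster 14, led by Nov, Igfbp6 and Slc47a1, had 18.6 CPM in Adult (55 cells), 16.9 CPM in Aged (58 cells), 94.7 CPM in EAE (15 cells) and 7.30 CPM in Juvenile mice (821 cells). Cluster 34 was above cluster 14 in each condition with both values. In Adult mice cluster 14 held 3 of the 60 fibroblast Vcam1 UMIs, and cluster 34 had too few cells for a value. The makeup of the fibroblasts thus differed between conditions, and its part in the changes was not tested. Over all fibroblasts neither the EAE change (0.80 ± 0.62, adjusted p = 0.538; 5.53% of genes called) nor the Juvenile change (-1.63, adjusted p = 0.131; 4.65% called) passed, although without Adult library 1, the low one, the latter was -2.16 (adjusted p = 0.00508).

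Mural cells, the pericytes and smooth muscle cells of the vessel wall, and astrocytes added few changes. Of the 6 genes only Icam2 was tested in mural cells, with EAE at 0.87 (2.91% of genes called) and Juvenile at -1.47 (adjusted p = 0.0563; 26.4% called), which passed without Adult library 3 (-1.80, adjusted p = 0.0151) or Juvenile library 4 (-1.89, adjusted p = 0.0169). The mural cells of the 2 ages lay mostly in clusters of different names. Each Adult library had 67 to 198 cells named pericytes and 21 to 33 named smooth muscle cells. Each Juvenile library had at most 2 named pericytes and 59 to 199 named smooth muscle cells. Each mural cluster took the name of its higher score, centred over the mural clusters alone. Whether Juvenile clusters named smooth muscle also held pericytes was not tested. In cells named smooth muscle alone Icam2 gave 1 UMI in Adult (mean 4.36 CPM) and 29 UMIs in Juvenile mice (15.1 CPM). Adult cells named pericytes had 39.6 CPM. Its mural level in EAE, 17.5% of that in ECs, lay within the 14.4 to 18.7% of the EC markers. Astrocyte Vcam1 was 209 and 208 CPM in EAE, within the Adult range of 179 to 283 CPM, and 410, 418, 380 and 406 CPM in Juvenile libraries, above that range (0.50, adjusted p = 0.09; 10.9% called). Ependymal Icam1 was 8.34 and 57.4 CPM in EAE, from 7 UMIs in 58 cells.

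In Juvenile ECs 3 of the 6 genes passed, 2 higher and 1 lower, where 47.3% of all genes did. With every close pair of libraries summed 1 passed, Madcam1, while Vcam1 (-1.71, adjusted p = 0.133) and Icam2 (0.36, adjusted p = 0.25) did not. Madcam1 was 23.7, 19.3, 8.27 and 17.8 CPM in Juvenile libraries and 0.282, 0 and 0.132 CPM in Adult libraries, without overlap. The ratio was 154 from 387 against 2 UMIs (counting interval 42.3 to 1276), and the fitted change was 7.10 ± 0.64 (adjusted p = 4.1e-06). Madcam1 stayed this low in older mice, with 1 UMI in Aged ECs and 4 in EAE ECs.

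Most of the Juvenile Madcam1 came from Angpt2-high ECs, a cluster led by Angpt2 and Apln that scored about equally for tip-cell and inflammatory markers. There it was 231, 177, 76.2 and 203 CPM, and these 226 cells held 280 UMIs, 72.4% of the Juvenile EC total with 7.48% of all EC UMIs. Other Juvenile ECs held less, with 5.99, 7.11, 2.62 and 3.77 CPM in CapV and 23.3, 7.18, 14.9 and 0 CPM in REVs. Angpt2-high cells from Adult (57), Aged (52) and EAE mice (667) had 0 Madcam1 UMIs. The Juvenile level was 11.4, 7.71 and 128 times the level that 3 UMIs over each of these groups would give. The exact counting intervals of the ratios to these groups began lower, at 9.21, 6.23 and 103. Madcam1 was among the 10 leading genes of this cluster although it had not been used to build it.

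Vcam1 moved the other way in Juvenile mice, and in several cell types. In ECs it was 80.5, 57.0, 38.0 and 43.1 CPM, below the 112 to 280 CPM of Adult libraries (-2.0 ± 0.36, adjusted p = 0.00297). In PVMs it was 35.9, 31.8, 50.2 and 24.6 CPM against 342 to 502 CPM (-3.65 ± 0.19, adjusted p = 1.47e-12), in microglia 11.1, 7.74, 5.09 and 9.59 CPM against 26.1 to 59.6 CPM (-2.38 ± 0.30, adjusted p = 5.66e-05) and in CP epithelium 74.5, 80.7, 88.9 and 88.7 CPM against 143 to 164 CPM (-1.01 ± 0.09, adjusted p = 3.98e-08). None of these groups overlapped. The backgrounds were 11.2% of genes called in PVMs, 25.1% in microglia and 60.4% in CP epithelium, where 2, 2 and 3 of the tested genes were lower. Juvenile PVMs also held fewer EC marker transcripts (192 to 265 CPM, against 1054 to 1346 CPM in Adult).

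The Juvenile fall of EC Vcam1 was not seen in CapA. Arterial ECs had 870, 540, 498 and 523 CPM in Juvenile and 828 to 892 CPM in Adult libraries and CapA 71.3, 85.1, 87.9 and 59.4 CPM against 53.2 to 68.7 CPM. REVs had 129, 26.9, 89.5 and 66.0 CPM against 756 to 1994 CPM and CapV 7.33, 8.13, 4.65 and 7.20 CPM against 23.2 to 71.4 CPM. Venous-side values of the 2 ages did not overlap, while CapA values did. In arterial ECs only Juvenile library 1 reached the Adult range. With Juvenile libraries 1 and 2 as 1 sample, the arterial values (498 to 705 CPM) lay below that range. Arterial ECs held 40.6% of Juvenile EC Vcam1 UMIs with 3.35% of the EC UMIs, and REVs 8.93%.

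The other genes changed less with juvenile age in ECs. Icam2 was higher, with 406 to 512 CPM in Juvenile and 355 to 403 CPM in Adult libraries and no overlap (0.42 ± 0.10, adjusted p = 0.00392). Icam1 was 85.1 and 69.1 CPM in Juvenile libraries 1 and 2, which counted as 1 sample, and 29.6 and 26.8 CPM in libraries 3 and 4, across the Adult range (-0.47 ± 0.55, edgeR adjusted p = 0.527). REVs were 7.89 and 7.18% of ECs in libraries 1 and 2 and 1.44 and 1.45% in libraries 3 and 4. The part of REV numbers in the Icam1 levels was not tested. Sele was 1.99, 1.18, 2.24 and 1.61 CPM, below every Adult value but not past the test (-0.73 ± 0.30, adjusted p = 0.0594, and 0.0366 with libraries scaled by their totals or 0.0389 without Adult library 3). Juvenile Mitotic ECs had 124, 78.0, 73.5 and 36.2 CPM Icam1 (0.91 ± 0.20 against other ECs, but -0.062 with cells named by marker score) and held 24.2% of Juvenile EC Icam1 with 14.4% of the UMIs. In CP epithelium Icam2 (-1.67 ± 0.17, adjusted p = 1.37e-07) and Icam1 (-1.19 ± 0.51, adjusted p = 0.0496, but 0.0967 with libraries scaled by their totals) were lower, in PVMs Icam2 was lower (-1.92 ± 0.46, adjusted p = 0.0067) and in microglia Icam1 was lower (-1.08 ± 0.23, adjusted p = 0.00415). Without Adult library 1 the PVM Icam2 change was -1.45 (adjusted p = 0.074) and the microglial Icam1 change -0.92 (adjusted p = 0.0643), and the CP Icam1 call was lost when any of 9 libraries was left out. Both Icam1 calls were also lost with every close pair of libraries summed (-0.97 in microglia and -1.20 in CP epithelium). In PVMs and in CP epithelium Icam2 was above the range of the EC markers in 0 of 4 conditions. Those markers stood in PVMs at 4.89 to 6.72% of their EC level in Adult and 1.46 to 3.21% in Juvenile mice. In Juvenile CP epithelium their range was wide, reaching 23.1%. The part of EC transcripts in the lower Icam2 of these 2 cell types was not tested.

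In Aged against Adult mice none of the 6 genes passed the test with all libraries in. In ECs 0 of 6 passed (10.6% of all genes did), with Icam2 nearest at 477 and 488 CPM against 355 to 403 CPM in Adult libraries (0.34 ± 0.11, adjusted p = 0.063, and 0.0444 with libraries scaled by their totals). Aged Icam1 was 62.1 and 80.1 CPM and Vcam1 224 and 210 CPM, both inside the Adult range. In CP epithelium, PVMs, microglia, mural cells, fibroblasts and astrocytes 0 of the tested genes passed as well, where 2.28, 2.80, 3.22, 0.0385, 0.0352 and 0.287% of all genes did. Without Adult library 1, however, EC Icam2 (0.37, edgeR adjusted p = 0.0279), CP Vcam1 (0.31, adjusted p = 0.028) and PVM Vcam1 (0.54, adjusted p = 0.0271) passed as higher in Aged mice. The Adult samples of those fits were libraries 2 and 3, which were close in ECs (mean squared deviation 1.36), so the fits hold little Adult spread.

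The rest of the adhesion pathway gives the setting of the EAE result in ECs, where 33.8% of all genes passed with a median log2 change of 0.00. Of 16 cytokine receptors and NF-kB pathway genes 11 were higher and 0 lower (median 0.64), among them the interleukin-1 receptor Il1r1 (4.84-fold), Birc3 (3.18-fold) and Traf1 (2.11-fold). Of 12 chemokine genes 5 were higher and 1 lower (median 1.24). Among them were the chemokine-binding receptor Ackr1 (20.1-fold) and Ccl5 (8.81-fold), with Ccl7 lower (0.164-fold). The part of leukocyte transcripts in these chemokine changes was not tested. Of 12 junction and diapedesis genes 4 were higher and 1 lower, including Nectin2 (2.07-fold) and Pvr (1.88-fold), with the junctional molecule F11r lower (0.773-fold). Of 10 cytoskeletal partners of adhesion molecules 3 were higher, among them the membrane-actin linker Msn (1.37-fold), and 2 lower, Ezr (0.494-fold) and Cav1 (0.582-fold). Of 10 tested sialomucin and selectin-ligand enzyme genes 2 were higher and 5 lower, including Podxl2 (0.298-fold) and Chst2 (0.604-fold).

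The counter-receptors were read in the leukocytes of the EAE libraries. Itgb2, the chain that binds Icam1 and Icam2, was 290 CPM in microglia, 254 in monocytes and macrophages, 253 in neutrophils and 184 in T and NK cells. Its partner Itgal was highest in T and NK cells (137 CPM) and Itgam in microglia (220 CPM) and neutrophils (176 CPM). Of the chains that bind Vcam1 and Madcam1, Itga4 was 127 CPM in dendritic cells and 83.1 CPM in T and NK cells, and Itgb7 was 270 CPM in T and NK cells and 208 CPM in dendritic cells. Selplg, the selectin ligand, was 2268 CPM in microglia, 811 in neutrophils and 562 in T and NK cells. In EAE ECs themselves 5 of 9 counter-receptor genes tested were higher and 2 lower (median 1.64). Among those higher, Cd44 (5.94-fold) and Itgb7 (4.97-fold), genes of leukocytes, exceeded their level in Adult ECs, and the part of leukocyte transcripts in this was not tested.

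Across 56 combinations of 16 cell types and 4 conditions, the genes whose level was most like that of a member were Pecam1 (Pearson r = 0.86), Sox17 (0.85) and Cldn5 (0.84) for Icam2 and Nfkbia (0.72), Fli1 (0.71) and Klf10 (0.71) for Icam1. For Vcam1 they were Il11ra1 (0.72), Hspb8 and Fam13a (both 0.71), for Sele Sgms1 (0.72), for Selp Plaur (0.68) and for Madcam1 Slc31a1 (0.67). Among the 6 themselves Icam2 and Sele gave 0.60, Icam1 and Icam2 0.41 and Icam1 and Vcam1 -0.02. The points share libraries and differ in depth, so these are descriptions only.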

How the data were processed

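The deposited tables hold UMI counts per gene and cell, made by the authors from reads aligned to mm10; their processing notes name STAR 2.5.3a, featureCounts 1.6.1 and UMI-tools 0.5.3. The 11 tables were filtered as stated, and the cells were clustered in Seurat 5.3.0 (2000 variable genes, 30 principal components, resolution 1, the 6 genes and Irf1, Nfkbia, Nfkb1 and Ccl2 left out). Doublets called by Scanpy 1.11.5 (818, 1.62%) were kept and removed as an alternative. UMIs were summed per sample and cell type (at least 10 cells) and tested in edgeR 4.0.16 (R 4.3.3) with TMM factors, filterByExpr and robust quasi-likelihood fits. Conditions were fitted together without a block, and cell types or subtypes with the sample as a block. Only the fit of EAE against Adult ECs was run on simulated counts with known changes. Apart from those changes the simulated libraries shared the same mean profile, and the other fits were not simulated. The depth per library sets the precision of the rarer genes: Sele, Selp and Madcam1 rest on 610, 248 and 536 UMIs. Alternatives were DESeq2 1.42.0, plain library sizes, no filter, separate or merged libraries, each library left out, marker-score naming and a replicate block. The 6 genes and all lists were chosen with earlier results of these data known. Other pathway and similar genes were named by a fixed rule: the 3 most changed passing genes in each direction, and the 3 highest correlations. 44 fenestrated ECs, and clusters of mixed markers, were not described. A counter-receptor gene counted in its list is not reported here by name.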

Additional observations from a re-analysis of the deposited data

Results flagged for a closer look

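Of 53 sets of 4 Juvenile libraries examined, 2 held a library whose gap to the nearest other exceeded Dixon's 95% limit, where chance alone passes about 1 in 20. Icam1 in Juvenile CP epithelium was 1.37 CPM in library 3 and 0.471 to 0.619 CPM in the others (gap over range 0.836). Vcam1 in Juvenile arterial ECs was 870 CPM in library 1 and 498 to 540 CPM in the others (0.887).

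The EAE effect on Icam2 differed between ECs and CP epithelium by 1.64 ± 0.30 on the log2 scale (edgeR interaction adjusted p = 0.00017; 12.3% of genes called), with Icam2 lower in EAE in CP epithelium and within 0.24 of the Adult level in ECs. EC markers in CP epithelium were lower in EAE as well, and their part in the difference was not tested. Without EAE library 2 the difference was 1.49 (adjusted p = 0.129), and with near-identical libraries summed 1.60 (adjusted p = 0.244).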

How the results depend on the processing

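The limits of depth and design come first. Sele, Selp and Madcam1 rest on few UMIs, no condition has more than 4 libraries, and Adult libraries 2 and 3 were close enough that leaving out Adult library 1 leaves little spread. The EAE comparison of ECs with other types was not run with near-identical libraries summed or with an EAE library left out, since 1 sample remained.

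The Sele increase in EAE ECs, the Vcam1 increase in EAE PVMs, the Juvenile Madcam1 excess in ECs and the lower Juvenile Vcam1 in PVMs and CP epithelium kept their direction and their call in each alternative run, as did 92 of 98 single values under DESeq2 and 94 of 97 with all libraries separate, where the other 3 passed the test. With near-identical libraries summed, 62 of 77 kept direction and call, and with only Adult libraries 2 and 3 summed in microglia, an alternative chosen after seeing the data, 4 of 4 did. With the ECs of clusters led by microglial or CP genes left out, also chosen after seeing the data, 40 of 41 did, the exception being EAE Vcam1 against CP epithelium at 0.025. With every close pair summed the calls were 0 instead of 2 in EAE microglia, 1 instead of 3 in Juvenile ECs, 1 instead of 2 in Juvenile microglia and 0 instead of 1 in the difference of EAE effects between cell types, and single values were -1.71 for Vcam1 and 0.36 for Icam2 in Juvenile ECs (adjusted p = 0.133 and 0.25), 1.12 and -1.26 for Vcam1 and Icam1 in EAE microglia (0.0944 and 0.0649), 0.013 for Icam2 in EAE ECs and 0.053 for Vcam1 in venous ECs and REVs.

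Calls that appeared were 1 in Juvenile astrocytes (doublets removed, libraries separate, no filter, plain library sizes), 1 in Aged ECs (DESeq2, no filter, plain sizes), 1 in Juvenile fibroblasts (DESeq2, marker-score naming) and 1 in Juvenile mural cells (libraries separate, no filter). Marker-score naming, which uses no clusters, gave 1 call instead of 2 in Juvenile PVMs and 11 instead of 27 across EC subtypes, where counts past the threshold show how the fit moved and are no test of the subtypes. Without the filter 70 EC-against-type calls stood instead of 41. Under marker-score naming subtype values fell toward or past 0, at -0.062 for Icam1 in Mitotic, 0.055 for Icam2 and -0.36 for Vcam1 in Inflammatory, 0.077 for Icam1 in the venous-capillary difference of EAE effects, 0.013 for capillary Icam2 and -0.046 for capillary Sele. Without the filter, Icam2 was 0.039 in EAE ECs and 0.00037 in capillary ECs, and ECs stood 0.045 above CP epithelium in EAE Vcam1. Plain library sizes gave 0.038 for Icam1 of ECs against microglia, -0.020 for Icam1 in EAE ECs and 0.35 for EAE Vcam1 against CP epithelium, and DESeq2 gave -0.067 for EAE Vcam1 against astrocytes. TMM and plain sizes split the calls differently, with 55.8 and 31.7% of EC calls in EAE higher, 50.7 and 30.5% in microglia, 55.8 and 37.8% in PVMs, 47.5 and 62.9% in CP epithelium.

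Replicate numbers did not pair the libraries, as the 13 same-number pairs gave correlations of -0.163 to 0.0884. With the replicate number as a block, 1 call appeared in Juvenile mural cells, Icam2 in EAE ECs was 0.016, and the CP Icam1 call in Juvenile mice was lost (adjusted p = 0.0884).

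With 1 library left out, calls ranged from 17 to 27 across EC subtypes, 36 to 41 for ECs against other types in untreated mice, 3 to 4 in Juvenile and 0 to 1 in Aged ECs, 2 to 3 in EAE and 1 to 2 in Juvenile microglia, 1 to 3 in Juvenile and 0 to 1 in Aged PVMs, 2 to 3 in Juvenile and 0 to 1 in Aged CP epithelium, 0 to 1 in Juvenile astrocytes, fibroblasts and mural cells, 0 to 4 for the difference of EAE effects between cell types and 0 to 1 between venous-side and capillary ECs. Values whose sign changed with 1 library left out were those near 0 or of the smallest differences. Icam1 of ECs against microglia ranged from -0.17 to 0.071 (sign changed without Adult 1). In EAE ECs Icam1 ranged from -0.19 to 0.43 (without Adult 1 or EAE 1), Icam2 from -0.068 to 0.010 (without Adult 1 or EAE 1) and Vcam1 from -0.023 to 0.53 (without Adult 1). Capillary Icam2 ranged from -0.12 to 0.046 (without Adult 1) and Vcam1 in venous ECs and REVs from -0.53 to 0.16 (without Adult 2). The venous-capillary difference of EAE effects ranged from -0.70 to 0.28 for Icam1 (without EAE 1), from -0.62 to 1.23 for Sele (without Adult 1, Adult 3 or EAE 2) and from -0.49 to 0.64 for Vcam1 (without Adult 1 or EAE 2).

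The share of ECs with both Icam1 and Vcam1 had no stable direction in EAE and Aged mice. At 1000 UMIs the differences from Adult were -0.290 (EAE) and 0.0275 (Aged) percentage points, and with 1 library left out they ranged from -0.546 to 0.616 (EAE) and from -0.796 to 0.366 (Aged), including -0.112 without EAE 1, 0.0665 without Adult 3 and 0.0205 without Aged 2. The Juvenile difference ranged from -2.25 to -1.09. The cause of these changes was not tested.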
